A study of Rattus norvegicus with 9 samples.

Results

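The malate-aspartate shuttle is formed here by 7 genes, Got1, Got2, Mdh1, Mdh2, Slc25a11, Slc25a12 and Slc25a13, and its members are the probe sets that the platform annotation lists with 1 of these symbols alone. There are 10 such probe sets among 31042 on the array, and 9 of them are among the 18625 that passed the filter on low signal and were tested. The genes were chosen by the log2 change of Got1 at 1 h against control, one of the largest positive ones in these same data, and the others as its partners, so every 1 h change below is a description without a test. The series measured rat hippocampal RNA, which the labels assign to neurons, on 9 arrays in 3 groups of 3. These were ketone bodies for 6 h, ketone bodies for 1 h, and control in artificial cerebrospinal fluid alone. The labels name neither the ketone bodies nor their dose, give no exposure time for the control and no strain or age, and do not say that replicates are separate animals or cultures, so the spread behind each p-value is that among these arrays and may be technical.

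The shuttle carries the reducing equivalents of cytosolic NADH into mitochondria, whose inner membrane NADH does not cross. In the cytosol Mdh1 uses NADH to make malate, Slc25a11 exchanges malate for alpha-ketoglutarate, and Mdh2 remakes NADH in the matrix. Got2 then turns oxaloacetate into aspartate, Slc25a12 or Slc25a13 export it in exchange for glutamate, and Got1 returns it to oxaloacetate in the cytosol. In brain the shuttle is known for supporting the use of lactate and glucose by neurons and for supplying aspartate and glutamate carbon, and Slc25a12 is the main aspartate-glutamate carrier of neurons.

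The promoter windows of the aminotransferases Got1 and Got2 and of the cytosolic dehydrogenase Mdh1 are shown because Got1 stood apart from these partners in the values that follow. Each is the 250 bases before the start that a RefSeq promoter table (build GRCr8) gives for the gene, with each CCAAT pentamer, on either strand, in capitals. Windows were found for all 7 genes by symbol. The start given for Got1 is not the outer bound of its RefSeq gene, so its window lies inside the gene's span, and the Slc25a13 window overlaps its gene's bound, while the other 5 windows end next to theirs.
Got1, chr1:252329872-252330121, minus strand: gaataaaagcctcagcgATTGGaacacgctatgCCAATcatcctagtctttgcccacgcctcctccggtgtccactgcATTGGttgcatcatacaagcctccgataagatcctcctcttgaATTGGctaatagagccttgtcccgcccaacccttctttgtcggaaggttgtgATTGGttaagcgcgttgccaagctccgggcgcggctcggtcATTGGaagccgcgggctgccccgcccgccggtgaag
Got2, chr19:9180178-9180427, plus strand: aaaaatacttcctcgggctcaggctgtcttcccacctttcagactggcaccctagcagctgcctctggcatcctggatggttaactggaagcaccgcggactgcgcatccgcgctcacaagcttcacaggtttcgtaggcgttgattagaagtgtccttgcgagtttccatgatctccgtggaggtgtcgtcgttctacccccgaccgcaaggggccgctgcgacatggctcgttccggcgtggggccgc
Mdh1, chr14:99847228-99847477, minus strand: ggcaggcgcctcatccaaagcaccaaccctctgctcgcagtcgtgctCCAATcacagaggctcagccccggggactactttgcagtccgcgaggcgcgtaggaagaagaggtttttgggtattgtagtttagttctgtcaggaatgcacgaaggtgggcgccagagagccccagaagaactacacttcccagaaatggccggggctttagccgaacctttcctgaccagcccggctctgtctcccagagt

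The Got1 window held 6 CCAAT pentamers, 1 on the gene's strand and 5 on the opposite strand, a number reached by 11 of 33469 rat windows of this length (0.0329%). Mdh1, Slc25a11 and Slc25a13 held 1 each, as 34% of windows hold at least 1, and Got2, Mdh2 and Slc25a12 held 0. The GC box GGGCGG, searched on both strands, was found 2 times in the Got1 window and 1 time each in those of Mdh2 and Slc25a11, against at least 1 in 30.5% of windows. The palindrome TGACGTCA of the cyclic AMP response element lay in the Mdh2 window only among the 7, and in 1.59% of all windows. Neither TATAAA on either strand (12.9% of windows) nor the palindrome CACGTG (5.59%) was in any of the 7. No motif searched holds another, and a match describes the window and does not show binding.

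Correlations between whole arrays were 0.949 to 0.987 within a group and 0.945 to 0.988 between groups. By limma, 6 probe sets of 18625 passed an adjusted p of 0.05 at 1 h (0.0322%, with 0.0215% higher and 0.0107% lower). At 6 h 5 passed (0.0268%, with 0.0215% higher and 0.00537% lower), and between 6 h and 1 h 0 passed (0%). An unadjusted limma p under 0.05 was found for 2114 at 1 h (11.4%), 792 at 6 h (4.25%) and 507 between 6 h and 1 h (2.72%). With single arrays left out, the number passing the adjusted p was 0 to 10 at 1 h and 1 at 6 h whichever array was left out. Ketone_6h 1 and ketone_1h 3 lay farthest out on the first principal component, and log2 of 3' over 5' signal for the beta-actin controls stood at 1.84 ± 0.78 at 6 h, 1.85 ± 0.41 at 1 h and 1.35 ± 0.08 in control (SD, n = 3 arrays; exact 2-sided permutation p = 0.4 at 6 h and 0.2 at 1 h against control, 0.6 each after adjustment over 3 comparisons, where 0.1 is the smallest possible). The same ratio for Gapdh was 0.19 ± 0.23 at 6 h, 0.11 ± 0.04 at 1 h and 0.13 ± 0.11 in control (exact 2-sided permutation p = 0.8 at each time against control, 0.9 adjusted). All 8 listed markers of neurons were above the filter, as were all 8 of astrocytes and the 7 of oligodendrocytes on the array, so transcripts known from glia were measured beside those of neurons.

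Got1, the cytosolic aspartate aminotransferase, had deposited signals of 1015, 1574 and 1245 on the 6 h arrays. They were 1759.6, 1479 and 1818 on the 1 h arrays and 739, 650.1 and 810.4 on the control arrays. Every ketone array was above every control array, and the 6 h and 1 h arrays overlapped, since ketone_6h 2 exceeded ketone_1h 2. On the normalized scale used for all tests, log2(signal + 16) after quantile normalization, the means were 10.30 ± 0.32 at 6 h, 10.70 ± 0.16 at 1 h and 9.57 ± 0.16 in control (SD, n = 3 arrays per group throughout). The array-to-array spread at 6 h was the widest of the 3 groups.

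**Figure D1:**
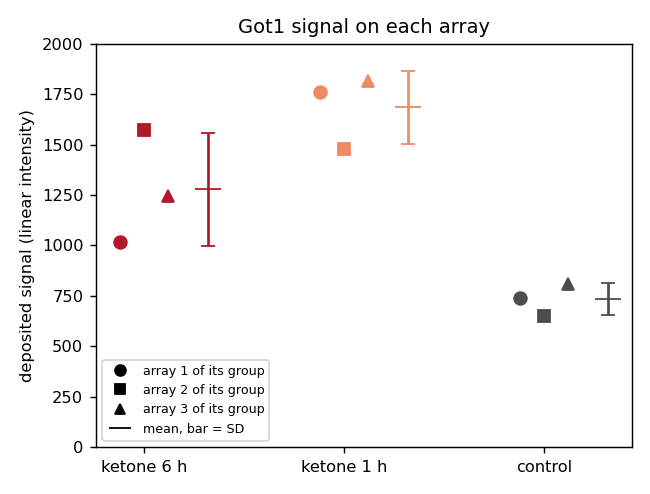
Deposited Got1 signal (linear intensity, vertical axis from 0) on each array of the 6 h, 1 h and control groups; symbols mark the array number within a group, and the dash with its bar is the mean ± SD of 3 arrays. The 1 h arrays lie between 1479 and 1818, the 6 h arrays between 1015 and 1574, and the control arrays between 650.1 and 810.4.

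The first comparison concerned 1 h of ketone bodies against control. Got1 had a log2 change of 1.13 ± 0.16 (SE), a fold of 2.19, which was number 4 in the order of positive changes over all tested probe sets. The neighbours in that order were a probe set listed as LOC100911253 (1.14 ± 0.18) and the chemokine gene Cxcl1 (1.09 ± 0.15), which differ from Got1 by less than these errors. The value stayed between 1.05 and 1.29 in 21 alternative settings. In these bulk samples, fewer cells of a type and less RNA per cell cannot be told apart.

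Some markers of cell types moved beside this value. The summed signal of the 6 excitatory neuron markers measured was 4745 to 5268 at 1 h, against 5709 to 6500.2 in control. The sum over 10 microglia and macrophage markers was 1341 to 1412 at 1 h and 1033 to 1227 in control, with the leading probe sets of Cd68 and Ptprc below the filter. Neither pair of ranges overlapped, and no marker list summed to 0. For 3 other lists the ranges at 1 h and in control were 19367 to 19604 and 20172 to 21264 for neurons, 6450.1 to 6893 and 5746 to 6217 for inhibitory neurons, and 20342 to 21761 and 20584 to 21895 for astrocytes. They were 17615 to 18774 and 18444 to 18979 for oligodendrocytes, 744 to 754 and 638 to 718 for endothelium, and 3890 to 4262 and 4667 to 4826 for choroid plexus and ependyma, where Kl and Kcnj13 were below the filter. Of the 8 lists, the ranges overlapped for astrocytes and oligodendrocytes only. These are sums of linear signal, to which abundant genes contribute most, and single genes of a list could go the other way. At 1 h the log2 change was above 0 in 1 of 8 neuron, 0 of 6 excitatory and 5 of 7 inhibitory neuron genes tested. For microglia it was 6 of 8, for endothelium 5 of 5 and for choroid plexus 2 of 4, against 55.3% of tested probe sets. Of all tested probe sets, 13% had 1 h arrays above control without overlap and 8.26% below. Those are shares of single probe sets and not of sums. The part of cell composition in the Got1 value was not tested.

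The mitochondrial aminotransferase Got2 had overlapping groups at 1 h. Its probe set 1367819_at had normalized log2 levels of 10.95, 11.07 and 11.07 at 1 h, against 10.95, 10.95 and 10.99 in control, a log2 change of 0.066 ± 0.072. Its lowest 1 h array lay just under the control range. The other Got2 probe set, 1389871_at, was below the filter with levels of 4.33 to 4.51 at 6 h, 4.01 to 4.59 at 1 h and 4.38 to 4.55 in control, and was not tested.

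The dehydrogenases gave the steadiest levels among the members. The cytosolic Mdh1 spanned 12.17 to 12.32 over all 9 arrays in 1367653_a_at and 11.38 to 11.55 in 1372790_at. Its 1 h changes were -0.0047 ± 0.0516 and 0.028 ± 0.060. The mitochondrial Mdh2 spanned 10.60 to 10.73, with a 1 h change of 0.036 ± 0.068. In all 3 probe sets the 1 h and control arrays overlapped, and the whole range over 9 arrays was 0.13 to 0.17, against 1.39 for Got1. The sign of Mdh1 1367653_a_at depended on the scaling, since centring each array on its median gave 1 h changes of 0.22 and 0.25 for Mdh1, 0.21 for Mdh2 and 0.28 for Got2, with 1.29 for Got1.

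The carriers were more varied. Slc25a11, the malate and alpha-ketoglutarate carrier, had levels of 10.02, 10.003 and 9.94 at 1 h, against 9.89, 9.78 and 9.70 in control, a log2 change of 0.20 ± 0.08. Every 1 h array was above every control array, though the gap was small. Slc25a12 had 9.32, 9.23 and 9.26 at 1 h and 9.11, 9.28 and 8.98 in control, a change of 0.14 ± 0.11, with control 2 inside the 1 h range.

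The probe sets of Slc25a13, the calcium-regulated aspartate-glutamate carrier best known from liver, did not go the same way. In 1389622_at the levels were 6.43, 6.49 and 6.43 at 1 h, against 6.41, 6.17 and 6.40 in control, a change of 0.12 ± 0.16. In 1379592_at they were 5.21, 5.32 and 5.14 at 1 h, against 5.69, 5.72 and 5.54 in control, a change of -0.43 ± 0.14. On the normalized scale the groups did not overlap in either probe set, and the signs were opposite. The gap in 1389622_at was small, and its change was below its SE. Its deposited signals overlapped, with 65.8 to 71.7 at 1 h and 59.1 to 72.6 in control. Its change was 0.031 as deposited and 0.00028 with the beta-actin ratio as a covariate. Probe set 1379592_at lies near the filter level of log2 5.21, a signal of about 21.0. Its change was -0.66 with a pseudocount of 1 and -0.20 with 64 in place of 16.

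Counted together on the normalized scale, 3 of 9 tested member probe sets (Got1, Slc25a11 and Slc25a13 1389622_at) had all 1 h arrays above all control arrays. This held for 13% of all tested probe sets. In 1 of 9 all 1 h arrays lay below, which held for 8.26%. The log2 change was above 0 in 7 of 9, against 55.3% of all tested probe sets. The 8 partner probe sets had a median 1 h change of 0.051 with a range from -0.43 to 0.20, and all tested probe sets had a median of 0.029. Since Got1 chose the members from this comparison, nothing is read from these counts.

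**Figure D2:**
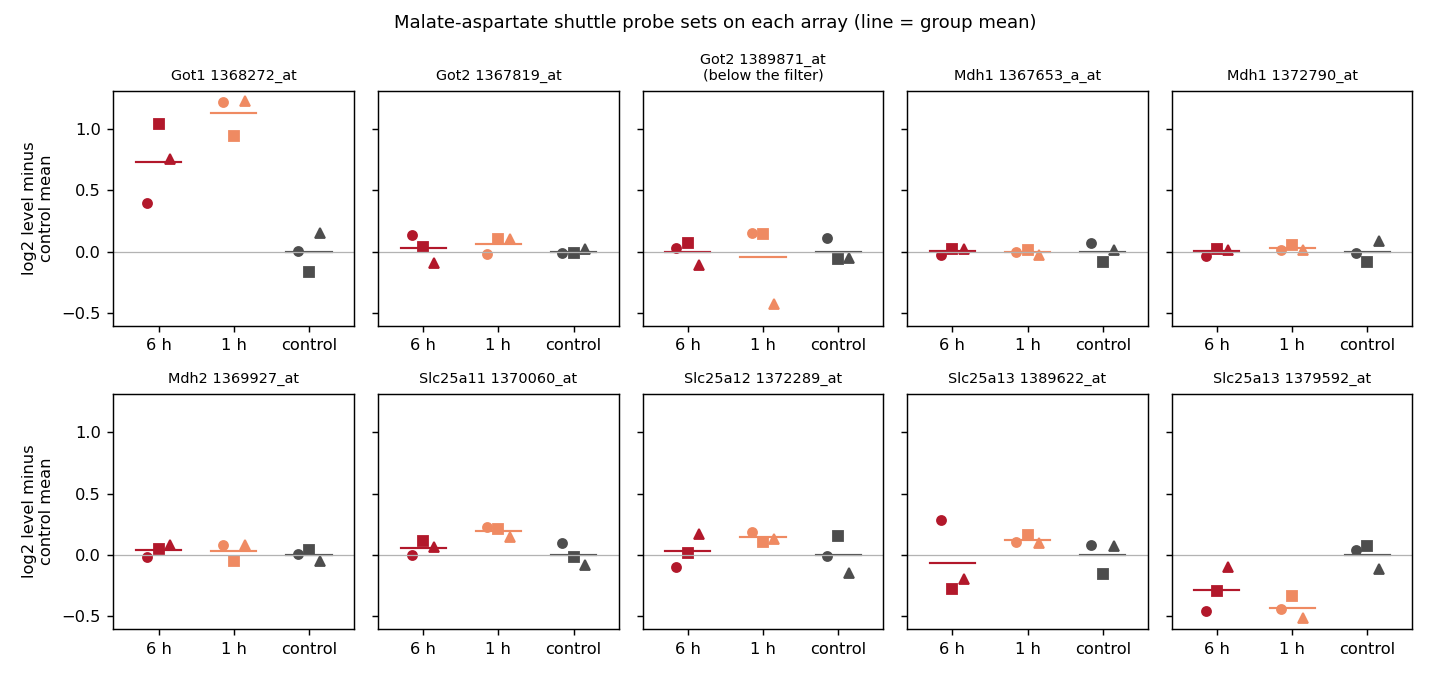
Each panel shows 1 shuttle probe set, with the normalized log2 level on each array minus the mean of the control arrays, for the 6 h, 1 h and control groups; horizontal lines are group means and symbols mark the array number. Got1 lies clear of its controls at both times, the panels of Mdh1 and Mdh2 stay near 0 on every array, and the Slc25a13 probe sets go in opposite directions at 1 h.

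The second comparison asked where the shuttle genes stood after 6 h against control, with the same control arrays as the 1 h comparison. Got1 had a log2 change of 0.73 ± 0.16, a fold of 1.66 (95% interval 1.30 to 2.11, unadjusted), and all 3 of its 6 h arrays were above all control arrays. It did not pass over all tested probe sets (limma adjusted p = 0.397, and 0.0692 to 0.999 over 21 alternatives). The change was 0.57 without ketone_6h 2 and 0.90 without ketone_6h 1. With the beta-actin ratio as a covariate it was 0.82, and 0.90 without ketone_6h 1 and ketone_1h 3 together.

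Markers of excitatory neurons summed to 4434 to 5492 at 6 h, against 5709 to 6500.2 in control. Those of microglia and macrophages summed to 1179 to 1316 at 6 h and 1033 to 1227 in control. Markers of neurons summed to 19078 to 19969 at 6 h and 20172 to 21264 in control, and those of inhibitory neurons to 6367 to 6477 at 6 h and 5746 to 6217 in control. The 6 h arrays were below control without overlap for the neuron and excitatory neuron lists and above it without overlap for the inhibitory list, and the ranges of the other 5 lists overlapped. Among tested genes the log2 change was above 0 in 1 of 8, 0 of 6 and 6 of 7 of these lists in turn, against 53.8% of tested probe sets. Of all tested probe sets, 6.05% had 6 h arrays above control without overlap and 3.15% below. Those are shares of single probe sets and not of sums. The remaining sums at 6 h and in control were 20320.0 to 22264 and 20584 to 21895 for astrocytes, 18058 to 19685 and 18444 to 18979 for oligodendrocytes, 713 to 832 and 638 to 718 for endothelium, and 4497 to 4868 and 4667 to 4826 for choroid plexus and ependyma. The part of these shifts in the 6 h value of Got1 was not tested.

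Among the partners 0 of 8 tested probe sets passed at 6 h by limma, and 0 had an unadjusted p under 0.05. Over all 9 members the counts were 0 and 1 (Got1), against 0.0268% and 4.25% of all tested probe sets. Got2 had 11.10, 11.01 and 10.88 at 6 h, against 10.95, 10.95 and 10.99 in control, a change of 0.030 ± 0.072 with a 95% interval of -0.13 to 0.19 (adjusted p = 0.991). The 6 h arrays lay on both sides of the control range.

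The dehydrogenases again stayed close to control. Mdh1 had 6 h changes of 0.0073 ± 0.0516 (95% interval -0.11 to 0.12) and 0.0031 ± 0.0597 (-0.13 to 0.14). Mdh2 had 0.037 ± 0.068 (-0.11 to 0.19). The upper ends of these unadjusted intervals lay below the 6 h change of Got1, 0.73, and below the lower end of its interval, 0.38. That interval rests on control arrays that also took part in choosing Got1.

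Slc25a11 had 9.79, 9.90 and 9.86 at 6 h, against 9.89, 9.78 and 9.70 in control, a change of 0.059 ± 0.079 (95% interval -0.12 to 0.23). Slc25a12 had 9.02, 9.14 and 9.29 at 6 h, against 9.11, 9.28 and 8.98 in control, a change of 0.029 ± 0.106 (-0.21 to 0.26). Both carriers overlapped with control. Slc25a13 had 6.61, 6.05 and 6.13 at 6 h in 1389622_at, against 6.41, 6.17 and 6.40 in control, a change of -0.062 ± 0.161 (-0.42 to 0.30). In 1379592_at it had 5.19, 5.35 and 5.55 at 6 h, against 5.69, 5.72 and 5.54 in control, a change of -0.28 ± 0.14 (-0.61 to 0.038). The last probe set overlapped with control only through ketone_6h 3 and control 3, and its change was -0.43 with a pseudocount of 1 and -0.14 with 64.

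At 6 h, 1 of 9 member probe sets, Got1, had groups that did not overlap and higher 6 h values, which held for 6.05% of all tested probe sets, and 0 of 9 lower, against 3.15%. The log2 change was above 0 in 7 of 9, against 53.8%. The partners had a median of 0.018, from -0.28 to 0.059, beside 0.015 over all tested probe sets.

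**Figure D3:**
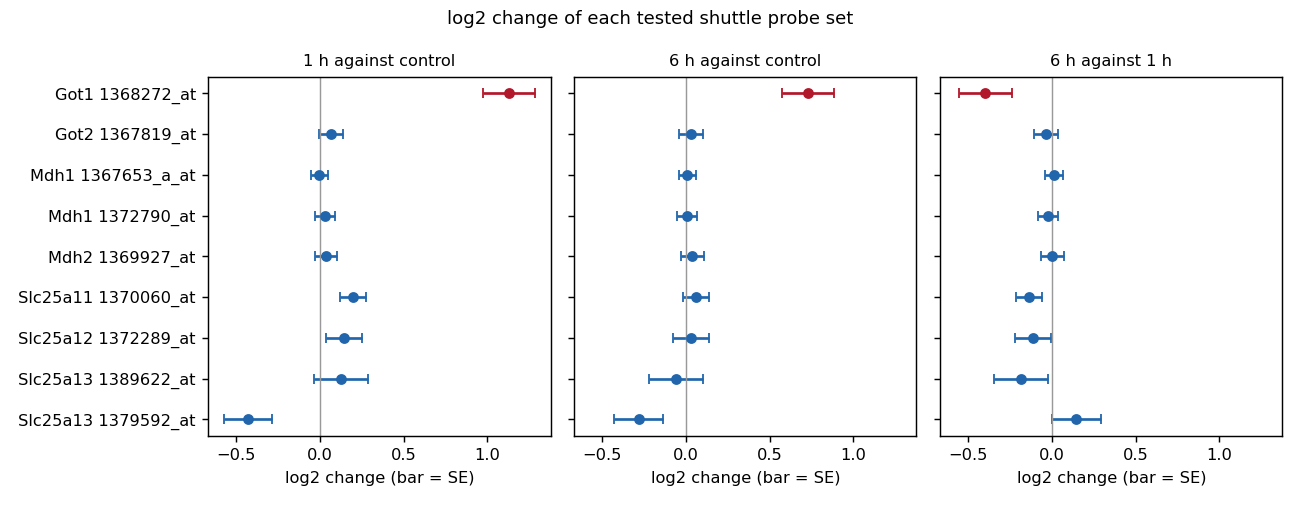
The log2 change of each tested shuttle probe set (points, horizontal axis; bars are SE) in the 3 comparisons, with Got1 in red and its partners in blue. Got1 has 1.13 at 1 h and 0.73 at 6 h against control and -0.40 between 6 h and 1 h, while the partner values lie from -0.43 to 0.20 at 1 h and from -0.28 to 0.059 at 6 h.

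Whether Got1 differed from its partners was examined within each array, as the Got1 level minus that of the partner's probe set with the highest mean. Against control, this difference was larger at 6 h by 0.67 to 0.79 on the log2 scale over the 6 partner genes, smallest with Slc25a11 and largest with Slc25a13. All 6 h arrays exceeded all control arrays for each of the 6. The exact 2-sided permutation p was 0.1 in each case, also adjusted over the 6, and 3 arrays against 3 cannot go below 0.1. The same Got1 values enter all 6 differences, and the control arrays also took part in choosing Got1. Nothing is therefore read from these p-values. At 1 h the difference from control was 0.93 to 1.13, given as a description because this comparison chose Got1.

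The third comparison set 6 h against 1 h. Got1 had a log2 change of -0.40 ± 0.16 (95% interval -0.75 to -0.051, unadjusted), a fold of 0.759, and the groups overlapped. It did not pass (limma adjusted p = 0.996, and 0.62 to 1.0 over 21 alternatives), and the 1 h arrays in it had also chosen the gene. The change was -0.55 without ketone_6h 2, -0.23 without ketone_6h 1 and -0.19 without ketone_6h 1 and ketone_1h 3 together, so its size rests on single arrays.

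By limma 0 of 9 members passed between the exposure times, and 1 of them (Got1) had an unadjusted p under 0.05, against 0% and 2.72% of all tested probe sets. The log2 change was above 0 in 3 of 9, against 47% of all. With the values as deposited or centred on array medians it was above 0 in 1 of 9. The share of all probe sets is not given for those scalings, where their median change was -0.0027 as deposited and -0.029 centred. On the normalized scale, partner changes ran from -0.19 (Slc25a13, 1389622_at) to 0.15 (Slc25a13, 1379592_at), with a median of -0.030 beside -0.012 over all tested probe sets. Slc25a11 had 9.79, 9.90 and 9.86 at 6 h and 10.02, 10.003 and 9.94 at 1 h, a change of -0.14 ± 0.08 (adjusted p = 0.996). It was the only member of 9 whose 6 h arrays all lay below the 1 h arrays, which held for 4.04% of all tested probe sets, and 0 lay above, against 3.55%. The differences between Got1 and its 6 partners changed by -0.41 to -0.21, with overlapping groups for each of the 6, given as a description because the 1 h arrays chose Got1.

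The 5 genes whose profile over the 9 arrays was most like that of Got1, by Pearson's r among 14449 other probe sets of a single gene, were Arl6ip5, Arhgdib, Rab3b, Ddb2 and Gabarap, with r from 0.956 to 0.980 and Spearman's coefficient from 0.9 to 0.983. They were picked for this likeness, all arrays share the group differences, and no test was made. Arl6ip5, a membrane protein of the endoplasmic reticulum, had 9.88, 10.47 and 10.11 at 6 h, 10.59, 10.30 and 10.65 at 1 h, and 9.66, 9.68 and 9.73 in control. Like Got1, all 5 genes were lowest on ketone_6h 1 among the ketone arrays. That array lay far out on the first principal component and had the highest log2 beta-actin 3'/5' ratio, 2.58. The part of that array in the likeness was not tested. Arhgdib, Rab3b, a small GTPase of secretory vesicles, Ddb2, a sensor of DNA damage, and Gabarap, an autophagy protein, had smaller ranges. Rab3b had means of 8.32 at 6 h, 8.40 at 1 h and 8.21 in control.

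Of the shuttle partners, Slc25a11 had the profile most like Got1 (r = 0.760, Spearman's coefficient 0.783, number 472 of 14449), and the others with a positive r ranged from 0.013 for Slc25a13 1389622_at to 0.448 for Slc25a12. Slc25a13 1379592_at had r = -0.795. These values describe 9 arrays in 3 groups and carry no test.

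**Figure D4:**
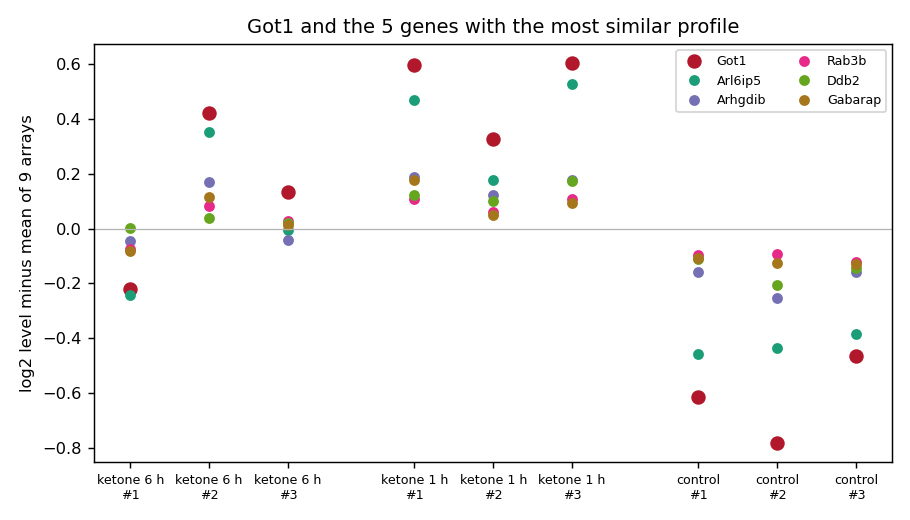
Normalized log2 level minus the mean of the 9 arrays for Got1 and the 5 genes with the most similar profile, on each array of the 6 h, 1 h and control groups. In the control group all 6 genes lie below their mean, from -0.78 to -0.092, and on the 1 h arrays all lie above it.

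Other genes of cytosolic NADH, aspartate and mitochondrial exchange were read from 6 lists with 57 genes and 76 probe sets tested. By limma 0 of the 76 passed at 6 h against control, 0 at 1 h against control and 0 at 6 h against 1 h, beside 0.0268%, 0.0322% and 0% of all tested probe sets. Those with an unadjusted p under 0.05 numbered 1, 9 and 5 of 76 in the same order, against 4.25%, 11.4% and 2.72% of all tested probe sets. The median change was 0.022 at 6 h and 0.10 at 1 h, beside 0.015 and 0.029 over all tested probe sets.

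The glycerol phosphate shuttle is the other route for cytosolic NADH. Its mitochondrial enzyme Gpd2 had 8.31, 8.28 and 8.24 at 6 h, against 8.05, 8.15 and 7.91 in control, a change of 0.24 ± 0.11 (adjusted p = 0.987), without overlap. Its cytosolic enzyme Gpd1 had 5.28, 5.78 and 6.21 at 6 h, against 5.95, 6.08 and 6.26 in control, a change of -0.34 ± 0.23, with overlap (adjusted p = 0.987). The lactate dehydrogenases Ldha (0.026 ± 0.091) and Ldhb (-0.030 ± 0.093) stayed near control at 6 h (adjusted p = 0.991 each).

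Among 23 tested probe sets of glutamate and aspartate enzymes the smallest p values at 6 h belonged to the mitochondrial alanine aminotransferase Gpt2 (0.30 ± 0.14) and to glutamine synthetase, Glul (-0.67 ± 0.39), each with adjusted p = 0.987. The Glul probe set varied widely, with 8.60, 9.30 and 10.33 at 6 h against 10.07, 10.21 and 9.94 in control. Among 24 of other mitochondrial carriers they belonged to the ATP-magnesium/phosphate carrier Slc25a24 (0.26 ± 0.15) and the ornithine carrier Slc25a15 (0.22 ± 0.17). Malic enzymes, which link malate to pyruvate, gave 0.30 ± 0.16 for the mitochondrial Me2 and -0.19 ± 0.12 for the cytosolic Me1. In the citric acid cycle a succinyl-CoA ligase subunit, Suclg2, had 8.83, 9.23 and 8.97 at 6 h against 8.67, 8.63 and 8.64 in control (0.36 ± 0.12), and citrate synthase, Cs, had -0.30 ± 0.15. None of these passed, with an adjusted p of 0.987 for each by limma.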

How the data were processed

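Rat hippocampal RNA was measured on 9 arrays, and the authors deposited signal intensity on a linear scale, as read from the values, for 31099 probe sets, with 0 values at or below 0. How the arrays were scanned and summarised is not given in the sources used here. Leaving out 57 control probe sets, values were taken as log2(signal + 16) and quantile normalized, since array medians spanned 0.206 on that scale. Probe sets with a mean under the 40th percentile (log2 5.21) were left out. All 3 comparisons came from a single linear model over the 9 arrays (limma 3.58.1, R 4.3.3, eBayes with an intensity trend), which leaves 6 residual degrees of freedom, with Benjamini-Hochberg adjustment over the 18625 tested probe sets. The fit was tested on simulated data.

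The members, lists and tests were chosen with earlier results of these data known. Symbols came from the platform annotation, where 20758 of 20826 probe sets with 1 gene matched the RefSeq table by Entrez number. Named genes were every member probe set, the 5 genes most like Got1 by Pearson's r, and from each related list the members that pass. Where none passed, the 2 probe sets with the smallest p at 6 h were named, which need not be those of highest mean for their genes. Lists were fixed by symbol for the glycerol phosphate shuttle, lactate and glycolytic NADH, glutamate and aspartate enzymes, other mitochondrial carriers, malic enzymes with pyruvate carboxylase, the citric acid cycle, and markers of 8 cell types, summed per array with 1 probe set a gene, the one of highest mean. The 3'/5' ratios and the differences between Got1 and its partners at 6 h against control were compared by exact permutation tests (scipy 1.17.1). Promoter windows came from RefSeq, build GRCr8. The number of arrays limits the precision. Alternatives were other scalings, pseudocounts and filters, no trend, array weights, a replicate block, only the compared groups and each array left out in turn. Chosen after seeing the data were the beta-actin 3'/5' ratio as covariate and the omission of ketone_6h 1 with ketone_1h 3.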

Additional observations from a re-analysis of the deposited data

How the results depend on the processing

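Got1 kept its sign in all 63 recomputed values (21 alternatives in each of 3 comparisons), and 0 of 9 members passed at 6 h against control or at 6 h against 1 h under any of the 21. Of 498 recomputed partner values 31 took the other sign. Those at 1 h were of changes without a test, and the rest were of changes that had not passed. Of 166 partner values at 1 h, 12 moved by more than the spread between replicates. This came with the values as deposited or centred on array medians or, for Slc25a13 1379592_at, with another pseudocount. Centring raised the median 1 h change of all tested probe sets to 0.096 from 0.029. With either scaling the number of members with a positive change between 6 h and 1 h was 1, not 3. Leaving out 1 array gave 6 to 8 positive members at 1 h, 5 to 7 at 6 h and 2 to 3 between 6 h and 1 h. Over all probe sets, the 6 that passed at 1 h became 3 with no filter, 25 with array weights, 0 with the beta-actin ratio as a covariate and 0 without the 2 arrays farthest out, and ran from 0 (without any 1 control array, ketone_1h 1 or ketone_1h 3) to 10 (without ketone_6h 1) with 1 array left out, with 3 without ketone_1h 2 and 2 without ketone_6h 3. The 5 at 6 h became 2 as deposited, 1 when centred, 2 with no filter, and 1 each with only the compared groups, with the covariate, without the 2 arrays and with any 1 array left out. With the replicate number as a block, 2 passed at 1 h and 1 at 6 h, and Got1 at 6 h had 0.73 ± 0.16 (limma adjusted p = 0.661). The labels state no shared source for arrays of the same number. Deviations of same-numbered arrays correlated at -0.36 to 0.54 and those of differently numbered arrays at -0.43 to 0.53. For 4 of 9 arrays the best correlation was with their own number, which does not settle whether arrays were paired. The filter at the 60th percentile left Slc25a13 untested. The causes were not tested.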
